A study of Cyanidioschyzon merolae with 29 samples.

Results

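Untreated cultures of the red alga *Cyanidioschyzon merolae* NIES-3377 were compared between day 10 and day 5 of growth. Of the 29 libraries of the nickel series, 6 belong to this comparison and were taken by their labels: C1, C3 and C5 of day 10 against C3, C4 and C5 of day 5, all at 0 mM Ni. All 4984 genes of the count table were considered. The other cultures received 1 or 3 mM Ni as nickel sulfate and were sampled on days 5, 10 and 15, while untreated cultures were also sampled on days 0 and 15. The wild-type alga was grown in acidic mineral medium under continuous white light, and poly(A)-selected RNA of whole cultures was sequenced. Each day had 3 biological replicates, but the sources used here do not state whether a label that recurs on both days, such as C3, stands for the same flask. In RNA of a whole culture, fewer cells that express a gene and less RNA per cell cannot be told apart. The 6 libraries held 2797232 to 4067107 counts, and all 3 libraries of day 10 were deeper than those of day 5.

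*C. merolae* is a unicellular alga of acidic hot springs. Its cell holds a single nucleus, a single mitochondrion and a single chloroplast, which divide in a fixed order in each cell cycle. Light is captured by phycobilisomes, antennae built from phycocyanin, allophycocyanin and linker proteins, and by chlorophyll-binding light-harvesting proteins around photosystem I. The phycobilisome genes lie partly in the chloroplast and partly in the nucleus, whereas the light-harvesting proteins are encoded in the nucleus.

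All 8 markers of a red algal cell, which are genes of both photosystems, the phycobilisome, the carbon-fixing enzyme Rubisco and the light-harvesting proteins, had counts in each of the 6 libraries. Their summed level was 6277 and 7681 CPM (counts scaled to library size) in C4 and C5 of day 5, 17555 CPM in C3 of day 5, and 19833 to 23855 CPM on day 10. Transcripts of the labelled alga were thus present throughout. Reads were aligned to *C. merolae* alone, so these counts cannot show other organisms. The summed marker level already set C3 of day 5 apart from the other libraries of its day. Most of this gap came from the light-harvesting genes *CMQ142C* and *CMN234C*. They were at 1139 and 1360 CPM in C4, 1308 and 1391 CPM in C5, and 6196 and 5653 CPM in C3 of day 5. Without C3, 5 of the 8 markers had a positive and 3 a negative log2 fold change, from -1.33 to 2.65.

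The same split ran through the whole transcriptome. As a measure of difference, the root mean square of the log2 CPM differences over all tested genes was used. C4 and C5 of day 5 differed from each other by 0.27, and each of them differed from the libraries of day 10 by 0.54 to 0.72. C3 of day 5 lay 0.72 and 0.77 from the 2 libraries that share its label day, but 0.39 to 0.48 from those of day 10. Its nearest library in the series was replicate C of day 5 at 1 mM Ni, at 0.32, followed by C5 and C3 of day 10. The 3 libraries of day 10 were 0.29 to 0.50 apart.

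**Figure D1:**
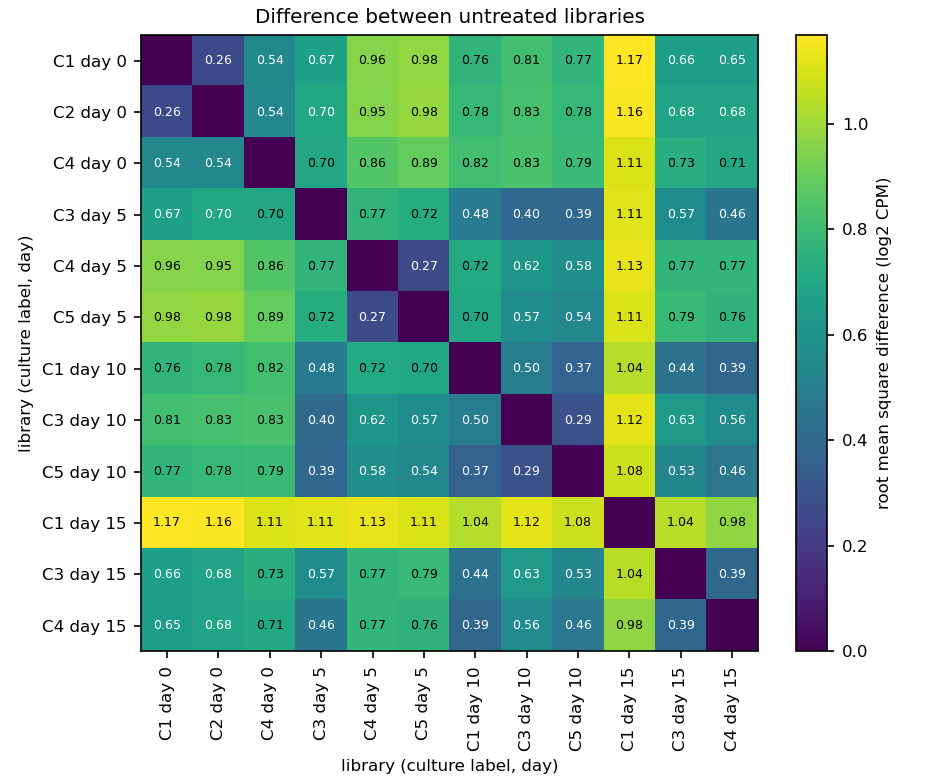
Root mean square difference in log2 CPM between the 12 untreated libraries, with culture label and day on both axes and darker cells for more similar pairs. C4 and C5 of day 5 pair with each other at 0.27, while C3 of day 5 lies closer to the day 10 libraries (0.39 to 0.48) than to C4 and C5 (0.77 and 0.72).

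Among 4796 genes tested with all 3 libraries per day, no DEG was found by edgeR's quasi-likelihood test at an adjusted p under 0.05 (0% of the tested genes). The lowest adjusted p was 0.153. At an unadjusted p under 0.05 there were 530 genes (11.1%), of which 230 were higher and 300 lower on day 10. DESeq2 called 27 genes, 7 up and 20 down, limma-voom without sample weights called 0 and limma-voom with sample quality weights, added after the data were seen, called 2137. The 3 libraries of day 10 did not overlap those of day 5 for 579 genes (12.1%), with 325 of them (6.78%) higher and 254 (5.3%) lower.

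When C3 of day 5 was left out, 664 of 4796 genes were DEGs by edgeR (13.8%), comprising 379 upregulated (7.9%) and 285 downregulated genes (5.94%) on day 10. Their absolute log2 fold changes had a median of 0.86 for upregulated genes, with 151 above 2-fold, and of 0.84 for downregulated genes, with 103 above 2-fold. Without C3 the day 10 libraries did not overlap C4 and C5 for 56.3% of all tested genes, 28.6% higher and 27.7% lower. The omission was defined with the resemblance of C3 to day 10 in view, so these p-values describe the contrast of the remaining libraries and do not replace the comparison of all 6. The count further depended on each remaining library of day 5, with 17 DEGs when C4 was also left out and 197 when C5 was. Without C1 of day 10 there were 335 and without C5 of day 10 there were 403. With the untreated libraries alone in the fit the count was 127, and it was 1198 with only the libraries of these 2 groups. With the culture label as a block it was 1. The genes described hereafter are those called without C3 of day 5, and no member of any gene list was called by edgeR with C3 included.

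**Figure D2:**
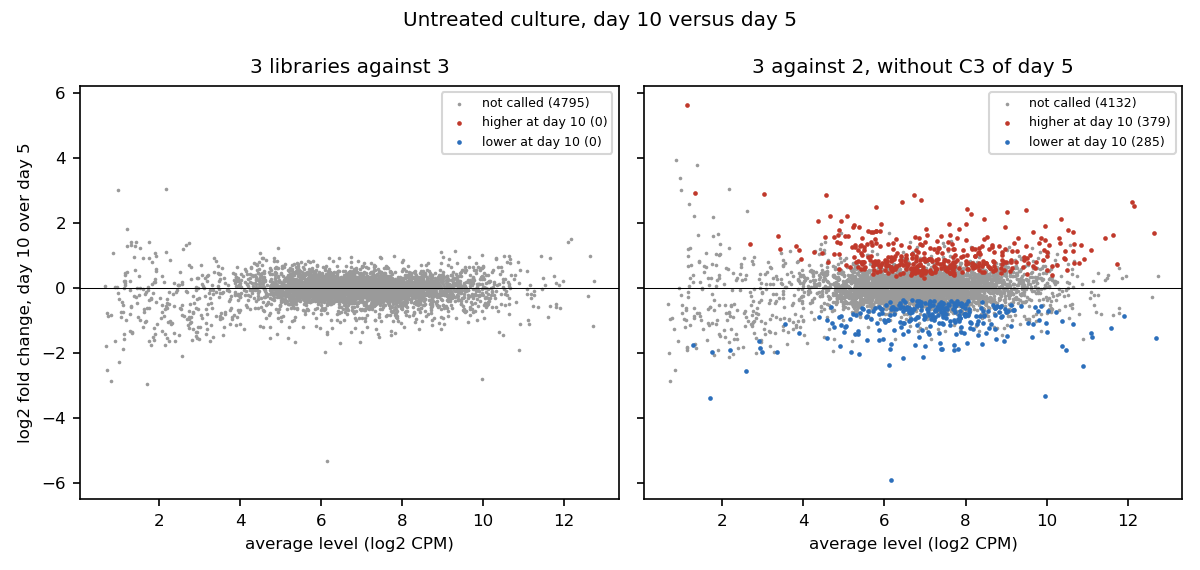
Log2 fold change of day 10 over day 5 against the average log2 CPM of each tested gene, with 3 libraries against 3 on the left and without C3 of day 5 on the right (1 tested gene without an average level in the second fit is not drawn on the left). Coloured points are genes at an adjusted p under 0.05 by edgeR, 0 on the left and 664 on the right.

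For each of the 664 genes, the position of C3 of day 5 was expressed on a scale on which 0 is the mean of C4 and C5 of day 5 and 1 is the mean of day 10. Its median position was 1.18, and it was nearer to day 10 for 637 genes (95.9%). C3 of day 5 lay inside the range of the 3 day 10 libraries for 154 of the 379 upregulated and 104 of the 285 downregulated genes. Since C3 was left out for its resemblance to day 10, this position is a description and not independent support for that resemblance. With C3 included, 373 of the 379 upregulated genes still had a positive log2 fold change (median 0.42) and all 285 downregulated genes a negative one (median -0.59), a direction that the choice of genes largely fixes.

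The 664 genes were also described across the rest of the series. They were chosen for high or low values in C4 and C5 of day 5, and every library was then measured against the mean of those 2 libraries, so that the choice itself shifts all other libraries away from them. The median log2 difference from their mean over the 379 upregulated genes was 0.71 to 0.96 in the libraries of day 0, 0.80 to 0.95 on day 10 and 0.77 to 0.97 on day 15 of untreated growth. In C3 of day 5 it was 1.12, the largest of all 29 libraries. Under nickel it was 0.73 to 1.03 in all libraries except replicates D and E of day 5 at 3 mM Ni, at 0.45 and 0.44. Over the 285 downregulated genes the same 2 libraries lay nearest to C4 and C5, at -0.21 and -0.28. The others were at -0.53 to -0.98, with C3 of day 5 the furthest away. C4 and C5 were the lowest 2 of all 29 libraries for 184 of the 379 upregulated genes (48.5%), against 8.8% of all tested genes, and the highest 2 for 85 of the 285 downregulated genes (29.8%), against 7.3% of all tested genes. These shares, too, are raised by the choice of genes.

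**Figure D3:**
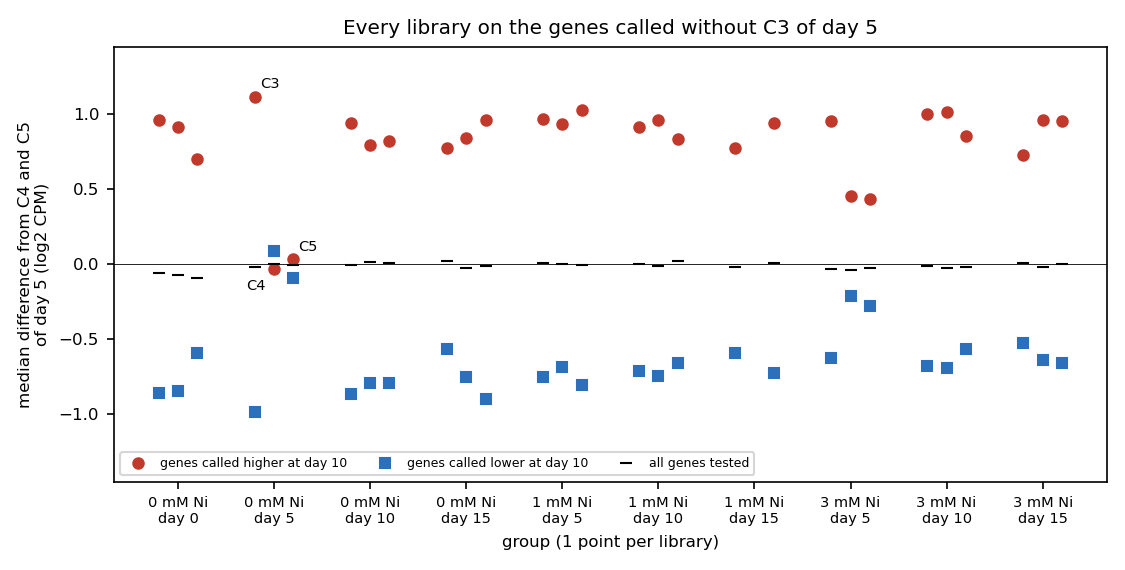
Median log2 CPM difference of each of the 29 libraries from the mean of C4 and C5 of day 5, over the genes called higher (circles) or lower (squares) on day 10 without C3 of day 5, and over all tested genes (dashes); groups of nickel dose and day are on the horizontal axis. The mean of C4 and C5 is 0 by construction. C3 of day 5 lies furthest from it of all libraries, at 1.12 and -0.98, and replicates D and E of day 5 at 3 mM Ni are intermediate.

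The genes with the lowest p in the comparison of all 6 libraries were mostly moderate changes. *CMH268C*, an undescribed gene on chromosome 8 (697935 to 698591, assembly ASM9120v1), had 51.1, 33.2 and 45.1 CPM in C3, C4 and C5 of day 5 and 88.1, 65.7 and 76.7 CPM in C1, C3 and C5 of day 10. The days did not overlap, and the log2 fold change was 0.83 (SE 0.18, unadjusted p = 8.08e-05, edgeR adjusted p = 0.153). *CMT094C*, similar to 2-dehydropantoate 2-reductase of pantothenate synthesis, ranged from 65.2 to 74.8 CPM on day 5 and from 91.1 to 93.3 CPM on day 10. Among genes lower on day 10, *CMT103C*, a probable glutathione S-transferase, had 195.3, 503.7 and 387.7 CPM on day 5 and 160.7, 168.7 and 180.3 CPM on day 10. *CMT165C*, the aldolase that opens the shikimate pathway to aromatic amino acids, had 59.4, 143.9 and 123.1 CPM against 46.4, 48.3 and 44.9 CPM. *CMQ026C*, a ubiquitin C-terminal hydrolase, had 63.5, 113.0 and 94.5 CPM against 45.4, 45.6 and 45.4 CPM. None of these passed the adjusted threshold with C3 included, and in each of the 3 downregulated genes C3 was the lowest library of day 5.

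The gene with the lowest p of all was *CMT284C* on chromosome 20 (720731 to 722689), similar to the yeast permease Git1p, which takes up glycerophosphoinositol. It had 350.1 and 78.8 CPM in C4 and C5 of day 5, 2.07 CPM in C3 of day 5 and 1.75, 4.71 and 4.26 CPM on day 10. C4 and C5 thus lay far above the other 4 libraries, while C3 fell among those of day 10. The log2 fold change was -5.34 (SE 1.05) with C3, at an unadjusted p of 3.53e-05 and an edgeR adjusted p of 0.153, and -5.92 (SE 0.78) without it, at an adjusted p of 0.000358. Levels as high were not limited to these cultures, since *CMT284C* reached 113.4 to 418.6 CPM on day 5 at 3 mM Ni and was at 47.6 to 56.9 CPM on day 5 at 1 mM Ni. It was at 9.79 to 39.1 CPM on day 0 and at 1.54 to 5.49 CPM on day 15 of untreated growth.

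Nuclear genes of the photosynthetic apparatus were among the lists with the largest shares of calls. Of 18 tested nuclear photosystem, phycobilisome and light-harvesting genes, 9 were upregulated and 0 downregulated on day 10 without C3, with a median log2 fold change of 0.83 for the list against 0.01 for all tested genes. The called share was 50%, against 13.8% of all tested genes. *CMQ142C* (chromosome 17, 337675 to 338319), similar to light-harvesting protein, had 1139 and 1308 CPM in C4 and C5 of day 5, 6196 CPM in C3 of day 5 and 7813, 8087 and 7098 CPM on day 10. The log2 fold change was 2.65 (SE 0.47, edgeR adjusted p = 0.00177), about 6.27-fold. With C3 the days still did not overlap, and the log2 fold change was 1.41 (SE 0.51, adjusted p = 0.274). *CMN234C*, similar to the chlorophyll-binding protein CP24, moved likewise, from 1360 and 1391 CPM to 7707, 8884 and 7065 CPM with C3 of day 5 at 5653 CPM, and its log2 fold change was 2.52 (SE 0.43, adjusted p = 0.00147). Both genes were equally low under strong nickel on day 5, where *CMQ142C* was at 869.3 to 1735 CPM and *CMN234C* at 991.1 to 1852 CPM at 3 mM Ni.

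Other called members of this list serve the electron transport chain, photosystem II and the phycobilisome. *CMG162C*, a Rieske iron-sulfur protein such as that of the cytochrome b6-f complex, was upregulated by 1.71 on the log2 scale (SE 0.33, edgeR adjusted p = 0.00268). *CMI290C*, the manganese-stabilizing protein of the oxygen-evolving complex, had 1494 CPM in both C4 and C5 of day 5, 4393 CPM in C3 and 4032, 5510 and 4394 CPM on day 10 (log2 fold change 1.64, SE 0.35, adjusted p = 0.0049). *CMP166C*, a linker of the phycocyanin rods, rose from 3004 and 3192 CPM to 8268, 12940 and 9037 CPM, with C3 of day 5 at 8946 CPM. The smallest call was that of *CMR052C*, the ferredoxin-NADP+ reductase that makes NADPH, at 0.54 (SE 0.18, adjusted p = 0.0471).

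The chloroplast genome showed a split between the phycobilisome and its other genes. Of 8 chloroplast-encoded phycobilisome genes 4 were upregulated and 0 downregulated without C3 (50%, against 13.8% of all tested genes). *CMV158C* and *CMV159C*, the alpha and beta chains of allophycocyanin in the phycobilisome core, had log2 fold changes of 1.35 (SE 0.33) and 1.39 (SE 0.33), at edgeR adjusted p of 0.0111 and 0.00989. *CMV158C* had 1103 and 1270 CPM in C4 and C5 of day 5, 2504 CPM in C3 and 2528, 3668 and 2888 CPM on day 10, so that C3 lay just below the lowest library of day 10. The rod-core linker *CMV051C* rose by 1.54 (SE 0.32, adjusted p = 0.00446) and the allophycocyanin B18 chain *CMV048C* by 1.13 (SE 0.29, adjusted p = 0.0138). The phycocyanin chains themselves, *CMV063C* and *CMV064C*, were at 5.24 to 15.0 and 15.5 to 49.7 CPM in the 6 libraries and were not called, with log2 fold changes of -0.19 (SE 1.02) and 0.60 (SE 1.32).

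All other calls in the chloroplast genome were downregulated, 18 of 190 tested genes, and the median log2 fold change of its genes was -0.87 against 0.03 for the 4588 nuclear genes. They comprised 3 of 43 photosystem, cytochrome and ATP synthase genes (6.98%), 1 of 34 ribosomal protein genes (2.94%) and 14 of 102 other genes (13.7%). Of all tested genes 5.94% were called down, so the first list lay near and the second below that share. *CMV129C*, the protease FtsH that removes damaged photosystem II proteins in plants, had 5255 and 4396 CPM in C4 and C5 of day 5, 1258 CPM in C3 and 1682, 1848 and 1574 CPM on day 10 (log2 fold change -1.50, SE 0.25, edgeR adjusted p = 0.00147). Cytochrome b6, *CMV096C*, had 7010 and 5226 CPM in C4 and C5, 2222 CPM in C3 and 2376, 2561 and 2825 CPM on day 10. *CMV110C*, an ELIP-like protein named for a plant protein induced by light, was at 86.1 and 95.9 CPM in C4 and C5, 26.2 CPM in C3 and 21.0 to 23.3 CPM on day 10 (log2 fold change -2.04, SE 0.33, adjusted p = 0.00147). *CMV133C*, the conserved frame Ycf86, fell by 1.80 (SE 0.31, adjusted p = 0.0017). In each of the 3 genes given by library C4 and C5 of day 5 lay above all 4 others.

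Since poly(A) selection was used, chloroplast transcripts were a small share of the counts, and that share moved with these calls. It was 5.46% and 5.75% in C4 and C5 of day 5, 3.84% in C3 of day 5 and 3.77% to 4.73% on day 10. The mitochondrial share was 0.050% and 0.039% in C4 and C5, 0.012% in C3 and 0.016% to 0.020% on day 10. Whether the share of organelle RNA retained in a library differed for technical reasons was not tested. Of 18 tested mitochondrial genes 1 was called, the undescribed *CMW053C*, with 355.3 and 243.8 CPM in C4 and C5, 75.6 CPM in C3 and 68.6 to 104.2 CPM on day 10 (log2 fold change -1.77, SE 0.31, adjusted p = 0.00154). With nuclear genes alone in the fit the DEGs numbered 646.

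Several enzymes of chlorophyll synthesis were upregulated, while the tetrapyrrole and carotenoid list as a whole did not move one way. Of its 31 tested genes 5 were upregulated and 3 downregulated (25.8%, against 13.8% of all tested genes), and the median log2 fold change was -0.06. The glutamate-1-semialdehyde aminomutase *CMP285C*, which makes the precursor aminolevulinate, had 346.4 and 377.6 CPM in C4 and C5 of day 5, 1071 CPM in C3 and 883.6, 915.0 and 848.1 CPM on day 10 (log2 fold change 1.29, SE 0.24, edgeR adjusted p = 0.00203). The uroporphyrinogen decarboxylase *CME194C* was upregulated by 0.86 (SE 0.19, adjusted p = 0.00589), and so were the glutamyl-tRNA reductase *CMJ054C*, the first committed enzyme of the pathway, by 0.98 (SE 0.29) and the protochlorophyllide oxidoreductase *CMG217C* by 1.33 (SE 0.42). *CMK151C*, a phytoene desaturase of carotenoid synthesis, fell by 0.73 (SE 0.19, adjusted p = 0.0166). The largest change of the list was downward, that of the chloroplast-encoded *CMV039C* (log2 fold change -2.54, edgeR adjusted p = 0.0166). Its levels were low, with 12.7 and 27.6 CPM in C4 and C5, 4.49 CPM in C3 and 1.75 to 4.83 CPM on day 10.

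**Figure D4:**
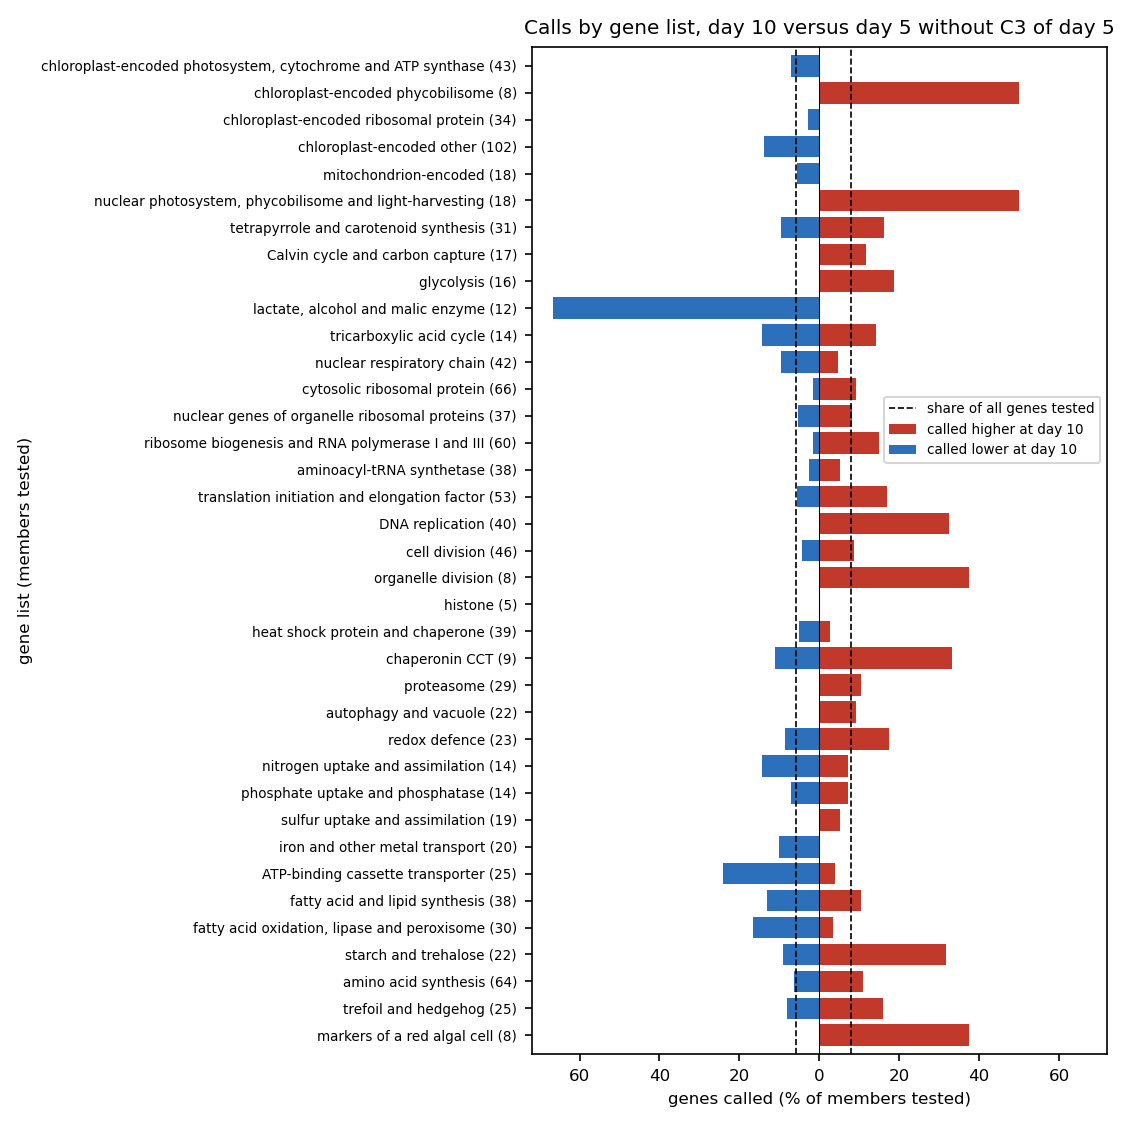
Percentage of the tested members of each gene list called higher (right) or lower (left) on day 10 without C3 of day 5 by edgeR, with the number tested in parentheses and dashed lines at the shares of all tested genes, 7.9% and 5.94%. Nuclear photosynthesis, phycobilisome, DNA replication and organelle division lists extend to the right. The lactate, alcohol and malic enzyme list, in which 8 of 12 genes were called, extends to the left. The chloroplast-encoded photosystem, cytochrome and ATP synthase list had 0 of 43 genes called higher and 3 called lower.

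DNA replication genes were called in the upward direction alone. Of 40 tested DNA replication genes 13 were upregulated and 0 downregulated, with a median log2 fold change of 0.52. The calls were 32.5% of this list, against 13.8% of all tested genes. The largest changes were in subunits that load onto origins before the S phase, the origin recognition complex and the minichromosome maintenance (MCM) helicase. *CMT300C* (chromosome 20, 761794 to 763518), similar to origin recognition complex subunit 4, had 3.36 and 4.30 CPM in C4 and C5 of day 5, 36.2 CPM in C3 and 18.5, 46.5 and 19.9 CPM on day 10. Its log2 fold change was 2.87 (SE 0.51, edgeR adjusted p = 0.00176), and 0.93 (SE 0.55, adjusted p = 0.538) with C3. The MCM family gene *CMJ261C* (chromosome 10, 700267 to 702915) had 17.5 and 21.8 CPM in C4 and C5, 178.8 CPM in C3 and 101.8, 204.3 and 122.4 CPM on day 10 (log2 fold change 2.85, SE 0.59, adjusted p = 0.00408). A second MCM gene, *CMH264C*, moved from 17.5 and 27.2 CPM to 112.5, 193.4 and 131.5 CPM, with C3 of day 5 at 201.9 CPM. For both MCM genes C3 of day 5 and C3 of day 10 were the highest of the 6 libraries.

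The levels in C4 and C5 of day 5 were compared with the start and the end of untreated growth. *CMJ261C* was at 14.2 to 18.9 CPM on day 0, about as low as in C4 and C5, whereas *CMT300C*, at 6.51 to 8.70 CPM, was above both. On day 15 C1, the library that stands apart from all others, had 5.51 CPM of *CMJ261C* and 3.21 CPM of *CMT300C*, while C3 and C4 of day 15 were above C4 and C5 of day 5, at 29.5 and 39.1 CPM of *CMJ261C* and 9.82 and 10.5 CPM of *CMT300C*. Under 1 mM Ni the levels were high already on day 5, with 182.6 to 217.1 CPM of *CMJ261C* against 93.0 to 149.6 CPM on day 10, and under 3 mM Ni they were 108.6 to 175.0 CPM on day 5 and 165.9 to 176.6 CPM on day 10. *CMT087C*, similar to the helicase MCM8, rose by 1.33 (SE 0.24, edgeR adjusted p = 0.00177) and the DNA primase large subunit *CMK284C* by 1.30 (SE 0.26, adjusted p = 0.00308). The sliding clamp PCNA, *CMS101C*, had 66.4 and 68.7 CPM in C4 and C5 of day 5, 274.0 CPM in C3 and 146.0, 303.5 and 173.2 CPM on day 10.

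Calls among organelle division genes were upward, whereas most genes of mitosis were not called. Of 8 organelle division genes 3 were upregulated and 0 downregulated (37.5%, against 13.8% of all tested genes). All 3 were of the FtsZ family, which forms the division ring inside the chloroplast and, in such algae, the mitochondrion. The mitochondrial *CMT493C* (FtsZ1-2) had 13.8 and 20.8 CPM in C4 and C5 of day 5, 64.5 CPM in C3 and 47.2, 67.1 and 57.6 CPM on day 10 (log2 fold change 1.72, SE 0.37, edgeR adjusted p = 0.0049). *CMS361C* (FtsZ1-1) rose by 1.75 (SE 0.54, adjusted p = 0.034) and the plastid *CMO089C* (FtsZ2-2) by 1.42 (SE 0.46, adjusted p = 0.0419). The dynamin-related proteins of the outer division rings, *CME019C* and *CMN262C*, had log2 fold changes of -0.35 (SE 0.20) and 0.16 (SE 0.20), and neither was called.

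Of 46 cell division genes 4 were upregulated and 2 downregulated. Their share of calls, 13%, did not exceed that of all tested genes, 13.8%. The probable mitotic cyclin *CMI203C* had 4.85 and 5.37 CPM in C4 and C5 of day 5, 26.9 CPM in C3 and 16.0, 25.3 and 22.7 CPM on day 10 (log2 fold change 2.05, SE 0.48, edgeR adjusted p = 0.00919). The chromosome maintenance gene *CML027C*, whose coordinates overlap those of *CML026T* over 1878 bases, rose by 1.33 (SE 0.37, adjusted p = 0.0208). *CMA127C*, a regulatory subunit of cyclin-dependent kinases, fell by 0.88 (SE 0.26, adjusted p = 0.0258). None of the 5 tested histone genes was called, and the highest of them, *CMN183C*, similar to histone H1, ranged from 530.2 to 617.1 CPM on day 5 and from 540.5 to 594.1 CPM on day 10.

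Calls among genes of protein synthesis were more often upward than downward, though not for every list above the shares of all tested genes, 7.9% up and 5.94% down. Of 53 translation factors 9 were upregulated and 3 downregulated, of 60 genes of ribosome biogenesis and RNA polymerases I and III 9 and 1, and of 66 cytosolic ribosomal proteins 6 and 1. Calls in either direction made up 22.6%, 16.7% and 10.6% of these lists against 13.8% of all tested genes, so that the ribosomal proteins did not exceed the background. The elongation factor 1 beta *CME120C* had 52.2 and 54.4 CPM in C4 and C5 of day 5, 320.3 CPM in C3 and 333.1, 163.7 and 197.3 CPM on day 10 (log2 fold change 2.12, SE 0.40, edgeR adjusted p = 0.00224). C4 and C5 were the lowest of all 29 libraries for this gene. *CMI184C*, a subunit of the H/ACA complex that guides pseudouridylation of ribosomal RNA, had 5.22 and 7.16 CPM in C4 and C5, 39.7 CPM in C3 and 27.5, 17.1 and 26.4 CPM on day 10 (log2 fold change 1.93, SE 0.41, adjusted p = 0.0049). The ribosomal protein S8 of the small subunit, *CMT159C*, rose by 1.05 (SE 0.25, adjusted p = 0.00946), and with C3, which at 358.6 CPM exceeded all 3 libraries of day 10, its log2 fold change was 0.20 (SE 0.33, adjusted p = 0.841). Among the 9 tested genes of the chaperonin CCT, which folds actin and tubulin, 3 rose and 1 fell (44.4%, against 13.8% of all tested genes). *CMT558C* had 97.7 and 95.2 CPM in C4 and C5, 380.0 CPM in C3 and 321.7, 244.4 and 257.0 CPM on day 10 (log2 fold change 1.51, SE 0.20, adjusted p = 0.000358), and *CMT322C* fell by 0.66 (SE 0.21, adjusted p = 0.0401). In the 29 libraries with C3 the median of the cytosolic ribosomal proteins was -0.07, and without C3 it was 0.19. Proteasome genes gave 3 upregulated of 29 and heat shock proteins and chaperones 1 upregulated and 2 downregulated of 39, both near or below the share of all tested genes. The DnaJ-like co-chaperone gene *CMA021C*, which overlaps *CMA020T* over 558 bases, was the clearest exception in abundance, with 4351 and 3588 CPM in C4 and C5, 1048 CPM in C3 and 1465 to 1557 CPM on day 10 (log2 fold change -1.40, SE 0.33, adjusted p = 0.00942).

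Calls in starch metabolism were mostly upward, and those in fermentation and lipid breakdown mostly downward. Of 22 starch and trehalose genes 7 were upregulated and 2, both described as trehalase, downregulated. Together these were 40.9% of the list, against 13.8% of all tested genes. The starch-associated protein R1, *CMT547C*, which in plants phosphorylates starch before its breakdown, had 288.6 and 423.8 CPM in C4 and C5 of day 5, 1126 CPM in C3 and 1713, 661.0 and 1149 CPM on day 10 (log2 fold change 1.72, SE 0.39, edgeR adjusted p = 0.00652). The beta-amylase *CMJ087C*, a starch-degrading enzyme, rose by 1.35 (SE 0.22, adjusted p = 0.00147) and the glucan phosphorylase *CMD184C* by 1.13 (SE 0.33, adjusted p = 0.0273). The trehalases *CMH100C* and *CMN097C*, which split the disaccharide trehalose, fell by 0.63 (SE 0.15) and 0.74 (SE 0.18).

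Of 12 lactate, alcohol and malic enzyme genes, a list added after values were seen, 8 were downregulated and 0 upregulated (66.7%, against 13.8% of all tested genes). *CMQ301C* (chromosome 17, 777042 to 778136), a probable alcohol dehydrogenase, had 2134 and 1384 CPM in C4 and C5 of day 5, 120.1 CPM in C3 and 113.0, 283.5 and 128.1 CPM on day 10. C3 lay within the day 10 range, and the log2 fold change was -3.33 (SE 0.81, edgeR adjusted p = 0.0104), or -2.79 (SE 0.88, adjusted p = 0.26) with C3. All 5 genes described as L-lactate dehydrogenase were among the 8. Reads that fit several close copies were skipped in counting, so these genes could be undercounted and are uncertain as separate results. The largest change was that of *CMI306C*, with 306.1 and 181.1 CPM in C4 and C5, 38.3 CPM in C3 and 58.6, 50.9 and 57.4 CPM on day 10 (log2 fold change -2.13, SE 0.50, adjusted p = 0.00889). The malate permease *CMS490C* fell by 1.58 (SE 0.29, adjusted p = 0.00203). *CMQ301C* was at 1528 to 2278 CPM on day 5 and 1548 to 1706 CPM on day 10 at 3 mM Ni, levels like those of C4 and C5.

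Of 30 genes of fatty acid oxidation, lipases and peroxisomes 5 were downregulated and 1 upregulated. Calls in either direction made up 20% of this list, against 13.8% of all tested genes. The acyl-CoA oxidase *CMK115C*, which opens peroxisomal fatty acid oxidation, had 1933 and 1702 CPM in C4 and C5 of day 5, 321.7 CPM in C3 and 695.5, 537.3 and 688.6 CPM on day 10 (log2 fold change -1.50, SE 0.33, edgeR adjusted p = 0.00544). Its levels in C4 and C5 exceeded those of all 27 other libraries, of which the highest outside these 6 had 1292 CPM. *CMT151C*, similar to triacylglycerol lipase, had 168.5 and 140.3 CPM in C4 and C5, 33.5 CPM in C3 and 34.2, 47.4 and 45.7 CPM on day 10 (log2 fold change -1.86, SE 0.26, adjusted p = 0.000358). The glyoxysomal fatty acid oxidation protein *CMR380C* fell by 1.09 (SE 0.23, adjusted p = 0.00421). The upregulated member was *CMG206C*, similar to the peroxisomal membrane protein PMP22, at 1.37 (SE 0.35, adjusted p = 0.0133). Genes of fatty acid and lipid synthesis were called in both directions, 4 up and 5 down of 38 (23.7%). *CML178C*, a fatty acid elongation protein, had 38.8 and 42.6 CPM in C4 and C5, 166.4 CPM in C3 and 156.2, 112.8 and 100.5 CPM on day 10 (log2 fold change 1.60, SE 0.27, adjusted p = 0.00147).

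**Figure D5:**
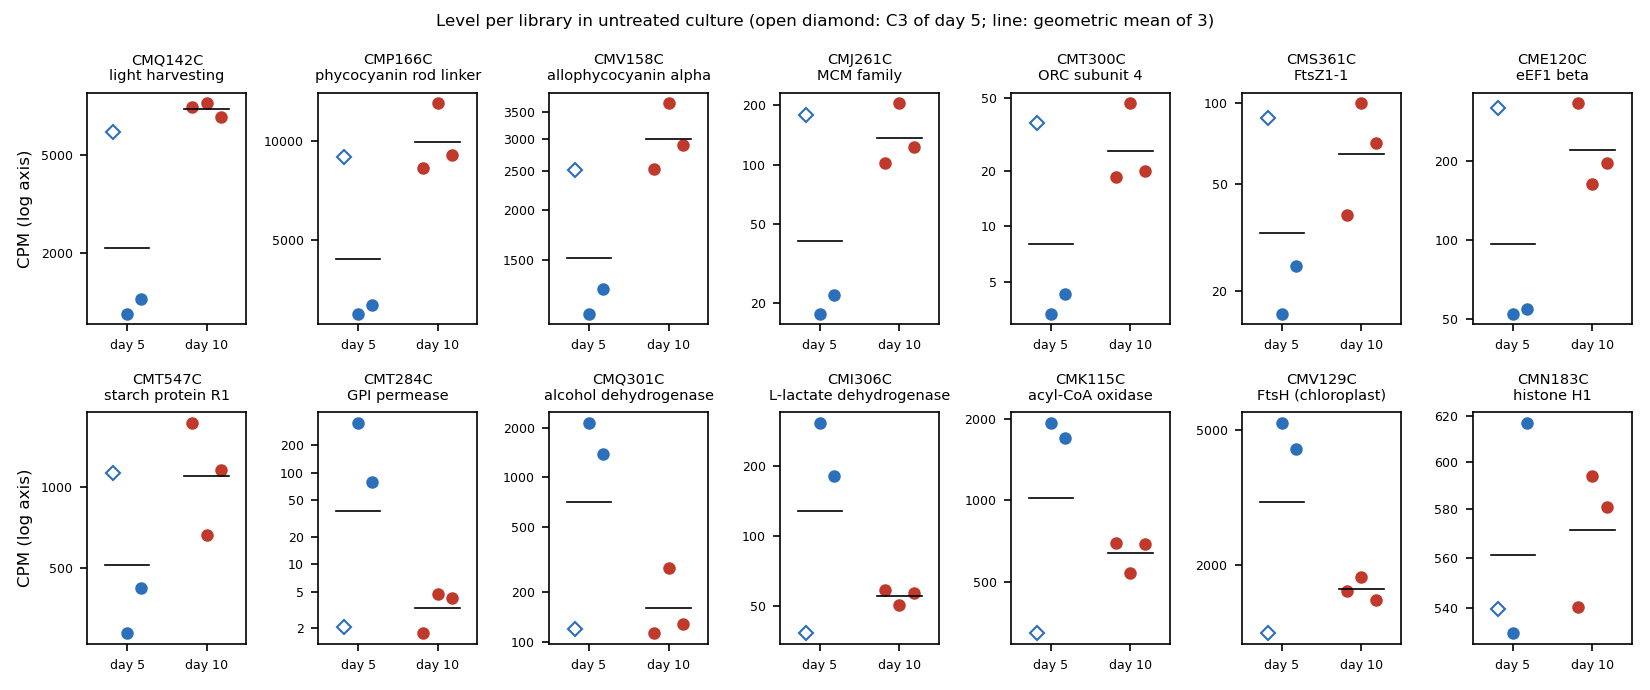
CPM on log axes in each untreated library of day 5 (C3 as an open diamond, C4 and C5 as filled circles) and day 10 (C1, C3 and C5 from left to right) for 14 genes, with lines at the geometric mean of each 3. In 13 of the genes C3 of day 5 lies on the side of day 10, and *CMN183C* (histone H1, 530.2 to 617.1 CPM) is an example of a gene without a call.

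Calls in central carbon metabolism made up 11.8% of the Calvin cycle list, 18.8% of glycolysis, 28.6% of the tricarboxylic acid cycle and 14.3% of the nuclear respiratory chain, against 13.8% of all tested genes. Of 16 glycolysis genes 3 were upregulated, the pyruvate kinase *CMP260C*, the phosphoglycerate mutase *CMK188C* and the aldolase *CME145C*, with log2 fold changes of 1.77 (SE 0.52), 1.56 (SE 0.48) and 0.88 (SE 0.26). Their edgeR adjusted p were 0.0282, 0.0341 and 0.0289. C3 of day 5 exceeded all day 10 libraries for *CMP260C* (46.6 against 21.8 to 44.4 CPM) and *CMK188C* (285.8 against 158.7 to 272.3 CPM). For *CME145C* it was just below them, at 1963 against 2007 to 2071 CPM. Of 17 Calvin cycle genes 2 were upregulated, among them the epimerase *CMI084C* by 0.74 (SE 0.19, edgeR adjusted p = 0.0132). The tricarboxylic acid cycle had 2 up and 2 down of 14, with citrate synthase *CMJ293C* lower by -0.86 (SE 0.18, adjusted p = 0.0049), and its coordinates overlap those of *CMJ292T* over 348 bases. Nuclear genes of the respiratory chain had 2 up and 4 down of 42, and the largest fall was that of *CMJ212C*, similar to the electron carrier cytochrome c, at -0.96 (SE 0.28, adjusted p = 0.0264).

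Transporters of the ATP-binding cassette family, also a list added after values were seen, were called down in 6 and up in 1 of 25 (28%, against 13.8% of all tested genes). The neighbouring genes *CMD134C* and *CMD135C* on chromosome 4 (348844 to 351132 and 351707 to 354184) both belong to its subfamily G. *CMD135C* had 4402 and 3318 CPM in C4 and C5 of day 5, 430.0 CPM in C3 and 768.8, 826.1 and 585.8 CPM on day 10 (log2 fold change -2.41, SE 0.59, edgeR adjusted p = 0.0102), and *CMD134C* fell by 1.90 (SE 0.46, adjusted p = 0.0098). As members of a multigene family, these genes could be undercounted, since reads that fit several copies were skipped. Of 20 genes of iron and other metal transport 2 were called, 10% against 13.8% of all tested genes. Both fell, the copper-transporting ATPase *CMP215C* by 0.71 (SE 0.17, adjusted p = 0.00988) and the probable metal-transporting ATPase *CMS330C* by 0.61 (SE 0.19, adjusted p = 0.0331).

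Redox and nutrient genes were mixed. Of 23 redox defence genes 4 rose and 2 fell (26.1%, against 13.8% of all tested genes). The variable chain of ferredoxin-thioredoxin reductase, *CMP058C*, which links the light reactions to thioredoxin, had 24.2 and 25.4 CPM in C4 and C5 of day 5, 89.7 CPM in C3 and 66.1, 59.8 and 70.1 CPM on day 10 (log2 fold change 1.40, SE 0.27, edgeR adjusted p = 0.00244), while both downregulated members, *CMT103C* and *CMR110C*, are glutathione S-transferases. Of 14 phosphate genes the probable transporter *CMN019C* rose by 1.54 (SE 0.37, adjusted p = 0.0101) and the permease *CMT284C* fell. Of 14 nitrogen genes the asparagine synthase *CMM145C* rose by 0.81 (SE 0.26, adjusted p = 0.0392), the chloroplast glutamate synthase *CMV060C* fell by 1.01 (SE 0.30, adjusted p = 0.0298), and *CMG021C*, a sulfite reductase by its description that overlaps *CMG022C* over 912 bases, fell by 1.78 (SE 0.30, adjusted p = 0.00147). Of 19 sulfur genes only the cysteine synthase *CMT313C* was called, at 0.80 (SE 0.16, adjusted p = 0.00289). Calls made up 14.3% of the phosphate, 21.4% of the nitrogen and 5.26% of the sulfur list, against 13.8% of all tested genes. Amino acid synthesis gave 7 up and 4 down of 64 (17.2%), and aminoacyl-tRNA synthetases 2 up and 1 down of 38 (7.89%). Nuclear genes of organelle ribosomal proteins gave 3 up and 2 down of 37 (13.5%), and genes of autophagy and the vacuole 2 up of 22 (9.09%). Trefoil and hedgehog genes gave 4 up and 2 down of 25 (24%). In the last list *CMH001C*, similar to hedgehog protein, was at 1013 and 1051 CPM in C4 and C5, 1942 CPM in C3 and 2794, 1779 and 2221 CPM on day 10 (log2 fold change 1.13, SE 0.26, adjusted p = 0.00818). Like other members of that family it could be undercounted where reads also fit close copies.

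Outside the lists, the genes with the largest changes included several with a known role. *CMP078C*, a beta-galactosidase, had 15.3 and 13.2 CPM in C4 and C5 of day 5, 110.4 CPM in C3 and 130.8, 55.6 and 79.2 CPM on day 10 (log2 fold change 2.64, SE 0.53, edgeR adjusted p = 0.00344). *CMQ113C*, similar to translationally controlled tumor protein, rose by 2.44 (SE 0.46, adjusted p = 0.00245) and *CMO306C*, a probable myo-inositol dehydrogenase, by 2.28 (SE 0.48, adjusted p = 0.00473). For *CMO306C* C3 of day 5 was at 413.8 CPM, well above the day 10 libraries at 163.4 to 165.0 CPM, and with C3 its log2 fold change was 0.03 (SE 0.62, adjusted p = 0.991). C3 of day 5 also exceeded the day 10 libraries for *CMQ113C*, at 203.3 against 87.4 to 155.5 CPM. The RNA helicase *CMR479C*, which overlaps *CMR480T* over 1482 bases, likewise had 1060 CPM in C3 of day 5 against 74.6 and 88.1 CPM in C4 and C5 and 335.0 to 518.8 CPM on day 10. Among downregulated genes *CMF187C*, similar to a ubiquitin-conjugating enzyme variant, had 242.0 and 154.3 CPM in C4 and C5, 55.6 CPM in C3 and 36.4, 30.6 and 48.3 CPM on day 10, so that the days did not overlap even with C3 (log2 fold change -2.36, SE 0.45, adjusted p = 0.00237). *CMT003C*, an amine oxidase, fell by 1.96 (SE 0.53, adjusted p = 0.0172). The undescribed *CMI012C*, *CMJ247C* and *CMR182C* rose by 2.89, 2.51 and 2.34, and the undescribed *CMR290C* and *CMQ032C* fell by 2.15 and 1.98. *CMI012C* had few counts, with 1.49 and 1.07 CPM in C4 and C5, 15.2 CPM in C3 and 5.89 to 15.5 CPM on day 10. Its edgeR adjusted p was 0.0465, and 5 of 13 alternatives called it. Of the 664 DEGs 250 had no description, which was 12.5% of the undescribed and, for the remaining 414, 14.8% of the described genes tested.

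The same days were compared in cultures with nickel, which share no library with the untreated ones. From day 5 to day 10, edgeR called 0 genes at 1 mM Ni (0% of 4796, 224 at an unadjusted p under 0.05, 3 by DESeq2) and 0 at 3 mM Ni (0%, 728 unadjusted, 26 by DESeq2). Leaving out replicate C of day 10 at 3 mM Ni gave 394. The 379 genes upregulated in untreated culture without C3 had a median log2 fold change of -0.06 at 1 mM Ni, with 157 positive, and of 0.31 at 3 mM Ni, with 341 positive. The 285 downregulated genes had medians of 0.02 with 133 negative, and of -0.27 with 257 negative. At 1 mM Ni these genes thus lay near the median of all tested genes, -0.01, and at 3 mM Ni most leaned the same way as in untreated culture without C3. A test of the difference in change between each dose and untreated culture called 0 genes with C3 and, without C3, 238 genes (4.96%) at 1 mM Ni and 3 genes (0.0626%) at 3 mM Ni by edgeR.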

How the data were processed

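Poly(A) RNA was sequenced in 29 libraries, of which 6 enter the main comparison. The authors used Trimmomatic 0.39 for trimming, HISAT2 for alignment to Ensembl's ASM9120v1, GATK to drop optical duplicates and HTSeq for reverse-strand counting, and they deposited raw counts. HTSeq's default skips multiply aligned reads, so close gene copies are undercounted. Gene descriptions come from the count table (2853 of 4984 genes) and coordinates from RefSeq by locus tag (4730 matched). Strand was used in counting, so overlapping genes are kept apart only where their strands differ.

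Genes were tested in R 4.3.3 with edgeR 4.0.16 (TMM, filter by expression, quasi-likelihood F-test, 1 coefficient per condition, all 29 libraries, or 28 without C3 of day 5), with Benjamini-Hochberg adjustment over all tested genes and a threshold of 0.05. CPM are counts scaled to the TMM-adjusted library size, and each SE follows from the log2 fold change and its F statistic. DESeq2 1.42.0, limma 3.58.1 (voom), other filters and scalings, and fits without each library were alternatives. As a test on simulated data, edgeR without C3 recovered 70.2% of 94 genes changed by 1 on the log2 scale and 91.5% of 106 changed by 2, with 11 false calls. With all 6 libraries it recovered 78.7% and 92.5%, with 13 false calls. In the simulation C3 of day 5 was drawn like the other libraries of its day. These rates therefore do not show what either fit recovers when C3 resembles day 10, as it did in the data.

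The comparison, the 37 gene lists, taken from words of the descriptions, and the rule for genes were chosen with earlier results of these data known. The rule named, among genes called without C3 of day 5, the 12 largest changes in each direction at an average log2 CPM of at least 3 without overlap between the days, up to 4 members of each list with the lowest p, and the 5 lowest p in each direction with C3. Outside it, *CMD184C*, *CME019C*, *CMG217C*, *CMH071C*, *CMJ054C*, *CMN262C*, *CMP166C*, *CMR052C*, *CMS101C*, *CMV063C* and *CMV064C* were named after their values were seen. So were the genes of the 3 mM Ni difference. The lists of lactate, alcohol and malic enzymes and of ATP-binding cassette transporters were added after values were seen. Before RNA-seq, 5 libraries not identified in the sources used here had their RNA purified again.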

Additional observations from a re-analysis of the deposited data

Results flagged for a closer look

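The change from day 5 to day 10 in untreated culture differed from that at 1 mM Ni for 238 genes (4.96%) by an interaction test with edgeR, without C3 of day 5, of which 88 were more positive and 150 more negative at 1 mM Ni. With C3 the test called 0 genes, with 264 at an unadjusted p under 0.05 and 0 by DESeq2. The contrasts share the untreated libraries, and 214 of the 238 genes (89.9%) were also called in untreated culture alone. Of 40 tested DNA replication genes 12 were among those more negative at 1 mM Ni, and so were 5 of 18 nuclear photosystem, phycobilisome and light-harvesting genes and 3 of 8 organelle division genes. Named genes made up 59 of the 238. *CMT558C*, a chaperonin CCT gene, had the lowest adjusted p, 0.0037, with a difference of -1.77 (SE 0.26), and *CMT300C*, of the origin recognition complex, differed by -3.42 (SE 0.61, adjusted p = 0.00762). Without C4 of day 5 as well the test called 0 genes, without C5 of day 5 it called 31.

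The change at 3 mM Ni differed from that in untreated culture for 3 genes (0.0626%) without C3 of day 5 and for 0 with it, with 254 at an unadjusted p under 0.05 and 4 by DESeq2. The 3 genes were more negative at 3 mM Ni, *CMF073C*, a probable potassium transporter, by -1.24 (SE 0.23, edgeR adjusted p = 0.0233), and the undescribed *CMH123C* and *CMI023C* by -1.93 (SE 0.32) and -1.81 (SE 0.29), both at an adjusted p of 0.0111. *CMH123C* had 24.2 and 32.6 CPM in C4 and C5 of day 5, 77.7 CPM in C3 and 69.2 to 103.3 CPM on day 10. Leaving out replicate A of day 10 at 3 mM Ni, or C4 of day 5, gave 0 genes.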

How the results depend on the processing

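With all 6 libraries the count of 0 DEGs remained 0 under the other size factors, filters, nuclear genes alone, narrower fits, limma-voom and the fold minimum. It was 27 with DESeq2, 8 without C1 of day 15, which stands apart from all other libraries, and 2137 with sample quality weights (both added after seeing the data), and 0 to 664 when 1 replicate was left out, 664 being the fit without C3 of day 5. Without C3, the 664 DEGs became 645 with DESeq2 size factors, 646 with nuclear genes alone, 653 without a filter, 651 at 10 counts or more in every library, 822 with DESeq2, 657 with limma-voom and 546 above 1.5-fold. They became 1198 with only the libraries of the 2 conditions, 127 with only untreated libraries, 2178 with quality weights and 1112 without C1 of day 15, and 17 to 553 with a further replicate left out. In 7 of these alternatives (DESeq2 size factors, no filter, 10 counts or more, the 2 conditions alone, untreated libraries alone, DESeq2 and limma-voom without quality weights), 118 of the 664 genes were called in each.

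Culture labels C3 and C5 occur on both days. Deviations from the day means correlated by -0.05 between the C3 libraries and by 0.23 between the C5 libraries. Between libraries with different labels the values ran from -0.23 to 0.17. With 3 libraries per day these correlations cannot decide whether the label is a pairing, and the main fits did not use it. With the culture label as a block edgeR called 0 genes with C3 of day 5 and 1 without it.

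At 1 mM Ni day 10 against day 5 gave 3 genes with DESeq2 and 0 to 1 with a replicate left out, and at 3 mM Ni 26 and 0 to 394. The differences of these changes from untreated culture gave, with C3 kept, 0 genes at 1 mM Ni with DESeq2 and with any other replicate left out. Leaving out C3 itself gave 238 there. At 3 mM Ni the differences gave, with C3 kept, 4 genes with DESeq2 and 0 to 19 with another replicate left out. Without C3 they gave 445 with DESeq2 and 0 to 178 at 1 mM Ni, and 42 and 0 to 45 at 3 mM Ni.

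The alternatives were also followed for 212 single genes, some of them not named above and some without a description. Of these genes 2 reversed, both between the fits with and without C3 of day 5. The chaperonin gene *CMT207C* moved from -0.02 to 0.63, with -0.28 when C4 of day 5 was left out in place of C3. The ribosomal protein gene *CMH071C* moved from -0.09 to 0.79, with -0.42 when C5 was left out instead. Of the 212 genes most lost their call when C4 or C5 of day 5 was also left out, and 49 to 91 did when a day 10 library was. The causes were not tested. With 3 or fewer libraries per day, smaller changes and genes with few counts were not resolved.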
